A study of Mus musculus with 12 samples.

Results

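The genes described here are 10 that act in the breakdown of leucine, isoleucine and valine, the branched-chain amino acids: Bcat1, Bcat2, Bckdha, Bckdhb, Dbt, Bckdk, Ivd, Mccc1, Aldh6a1 and Hibadh. They were chosen as listed symbols that the platform annotation gives to probe sets with a single symbol, and they make up 10 of the 18194 genes named on the array. All 10 passed the filter on dim signals and entered the tests. RNA from cultured mouse preadipocytes and adipocytes was hybridised to 12 Affymetrix arrays whose probes lie near the 3' ends of genes, with 3 arrays for each of 4 groups. 3T3-L1, an established line of white preadipocytes, was sampled undifferentiated at day 0 and as adipocytes at day 10. A brown adipocyte line, titled BFC, was sampled undifferentiated at day 0 and as adipocytes at day 8.

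Day 0 was 2 days after the cells had grown to confluence in both lines. Both lines then received 0.5 mM IBMX and 1 µM dexamethasone for 3 days. For white cells the mix also held insulin at 1 µg/mL, which was kept for 2 further days and then withdrawn. For brown cells it also held 125 µM indomethacin, 20 nM insulin and 1 nM of the thyroid hormone T3, and both hormones were kept until harvest. The serum was written as fetal calf serum for 3T3-L1 and as FBS for the brown cells, which are names for the same kind of serum. Line, serum, induction mix, later medium and harvest day differ together and cannot be told apart in any difference between the lines. The labels do not say whether the replicates were separate cultures, so p-values measure only the spread between these samples. The RNA came from whole cultures, in which a smaller share of cells of a type and less RNA per cell cannot be told apart.

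Branched-chain amino acids are broken down in mitochondria after a branched-chain aminotransferase has moved their amino group to 2-oxoglutarate, forming glutamate. Bcat1 encodes the cytosolic aminotransferase, found mainly in brain and in many growing cells, and Bcat2 the mitochondrial one, found in most other tissues. The resulting keto acids are committed to oxidation by the branched-chain keto acid dehydrogenase complex, and separate enzymes then finish the breakdown of each amino acid. White adipocytes use the carbon to build fatty acids, and brown fat burns it as fuel.

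Upstream sequences are shown for the 2 aminotransferases, whose signals moved in opposite directions, and for Ivd and Aldh6a1, because their windows hold several copies of 1 promoter motif. RefSeq gave windows for 9 of the 10 genes, on mouse build GRCm38.p6: Dbt is named only. Each window holds 300 bases, 250 before the annotated start and 50 after it, and is read 5′ to 3′ along the gene's strand. Capitals mark matches to CCAAT on either strand (a match on the opposite strand reads ATTGG). The windows are Bcat1 at chr6:145076108-145076407 (minus strand), Bcat2 at chr7:45569903-45570202 (plus strand), Ivd at chr2:118861744-118862043 (plus strand) and Aldh6a1 at chr12:84450975-84451274 (minus strand).
Bcat1: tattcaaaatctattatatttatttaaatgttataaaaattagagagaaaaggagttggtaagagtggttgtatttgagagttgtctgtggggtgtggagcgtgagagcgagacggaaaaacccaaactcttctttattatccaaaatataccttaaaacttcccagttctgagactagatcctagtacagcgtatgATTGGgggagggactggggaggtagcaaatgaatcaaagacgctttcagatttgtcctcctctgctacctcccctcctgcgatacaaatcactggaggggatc
Bcat2: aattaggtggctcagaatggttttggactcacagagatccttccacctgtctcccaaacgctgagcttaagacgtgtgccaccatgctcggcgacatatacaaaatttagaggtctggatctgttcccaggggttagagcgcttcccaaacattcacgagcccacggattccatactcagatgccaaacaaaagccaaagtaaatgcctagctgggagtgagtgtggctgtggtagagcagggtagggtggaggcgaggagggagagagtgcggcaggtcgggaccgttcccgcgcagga
Ivd: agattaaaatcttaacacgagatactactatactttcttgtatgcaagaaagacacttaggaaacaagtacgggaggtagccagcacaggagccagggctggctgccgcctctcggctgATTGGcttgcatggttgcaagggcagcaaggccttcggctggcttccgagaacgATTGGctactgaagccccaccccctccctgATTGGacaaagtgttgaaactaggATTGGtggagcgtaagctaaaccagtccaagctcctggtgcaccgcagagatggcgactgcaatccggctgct
Aldh6a1: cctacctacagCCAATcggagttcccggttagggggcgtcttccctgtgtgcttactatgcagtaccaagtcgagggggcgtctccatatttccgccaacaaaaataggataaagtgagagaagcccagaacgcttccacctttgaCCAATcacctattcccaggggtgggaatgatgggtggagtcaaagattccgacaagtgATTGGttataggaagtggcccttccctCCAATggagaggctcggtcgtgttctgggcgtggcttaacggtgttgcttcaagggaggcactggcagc

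The printed Bcat1 window held 1 CCAAT match, which began 53 bases before the start, and the printed Bcat2 window held none. The printed Ivd and Aldh6a1 windows held 4 each. Bcat1, Bcat2 and Aldh6a1 each have another window, at a start further downstream, which is not printed. In these other windows Bcat1 and Bcat2 had no CCAAT match and Aldh6a1 had 2. Several genes have more than 1 annotated start, which gave 13 windows for the 9 genes. CCAAT was found in 9 of these 13 windows and in 37.4% of all 32851 windows of this length. The GC box GGGCGG was found in 3 of the 13 windows, those of Bckdhb, Mccc1 and Hibadh, and in 35.7% of all windows. No member window held the E-box CACGTG (7.15% of all windows), the C/EBP site TTGCNNAA (10.8%) or the ERR half-site AAGGTCA (4.72%), each searched on both strands. No matches of 2 motifs overlapped in the windows of these genes. These are matches of letters in 1 window, and no binding was measured.

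With differentiation, the aminotransferase genes moved in opposite directions in both lines. Bcat1 fell and Bcat2 rose, while the genes for the dehydrogenase subunits and for the later steps rose alongside Bcat2. In white cells 9 of the 10 genes were higher in adipocytes and Bcat1 was lower; of all 13753 genes tested, 30.1% were called higher and 31.2% lower in that comparison. In brown cells the same 9 genes were higher and Bcat1 was lower, against 27.2% called higher and 31.6% called lower among all genes. The median log2 change of the 10 genes was 3.38 in white cells, beside 0.02 for all genes tested. In brown cells it was 1.49, beside -0.03. The arrays of the stages did not overlap for any of the 10 genes in either line, against 66.1% of all genes in white and 65.2% in brown cells. A gene was called at an adjusted p under 0.05 in limma, with Benjamini-Hochberg adjustment over all genes tested, and changes are differences of log2(signal + 16), a scale that understates the change of dim genes.

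Bcat1 had signals of 1917, 2092 and 2281 in white preadipocytes and of 70.0, 95.9 and 55.0 in white adipocytes. In brown preadipocytes it had 760.2, 606 and 685, and in brown adipocytes 34.1, 44.7 and 54.6. Every preadipocyte array of either line lay above every adipocyte array, and brown adipocyte replicate 1 lay below the 40th percentile of its array, a level of 32.9 to 41.2 over the 12 arrays that served as the floor of the filter. The log2 change was -4.58 (SE 0.175, adjusted p = 6.32e-09) in white cells, which ranked 14 among the falls of that comparison, and -3.54 (SE 0.175, adjusted p = 6.02e-08) in brown cells.

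Bcat2 was dim before differentiation: its signals were 78.7, 69.4 and 22.7 in white preadipocytes and 62.8, 57.9 and 65.3 in brown preadipocytes. White adipocytes had 902, 891 and 840.0, and brown adipocytes 183, 234 and 228. Adipocyte arrays lay above preadipocyte arrays in both lines without overlap, and white preadipocyte replicate 3 lay below the 40th percentile. The rise was 3.72 (SE 0.275, adjusted p = 8.44e-07) in white cells and 1.56 (SE 0.275, adjusted p = 0.00066) in brown cells. Bcat2 had the widest error among the 10 genes.

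**Figure D1:**
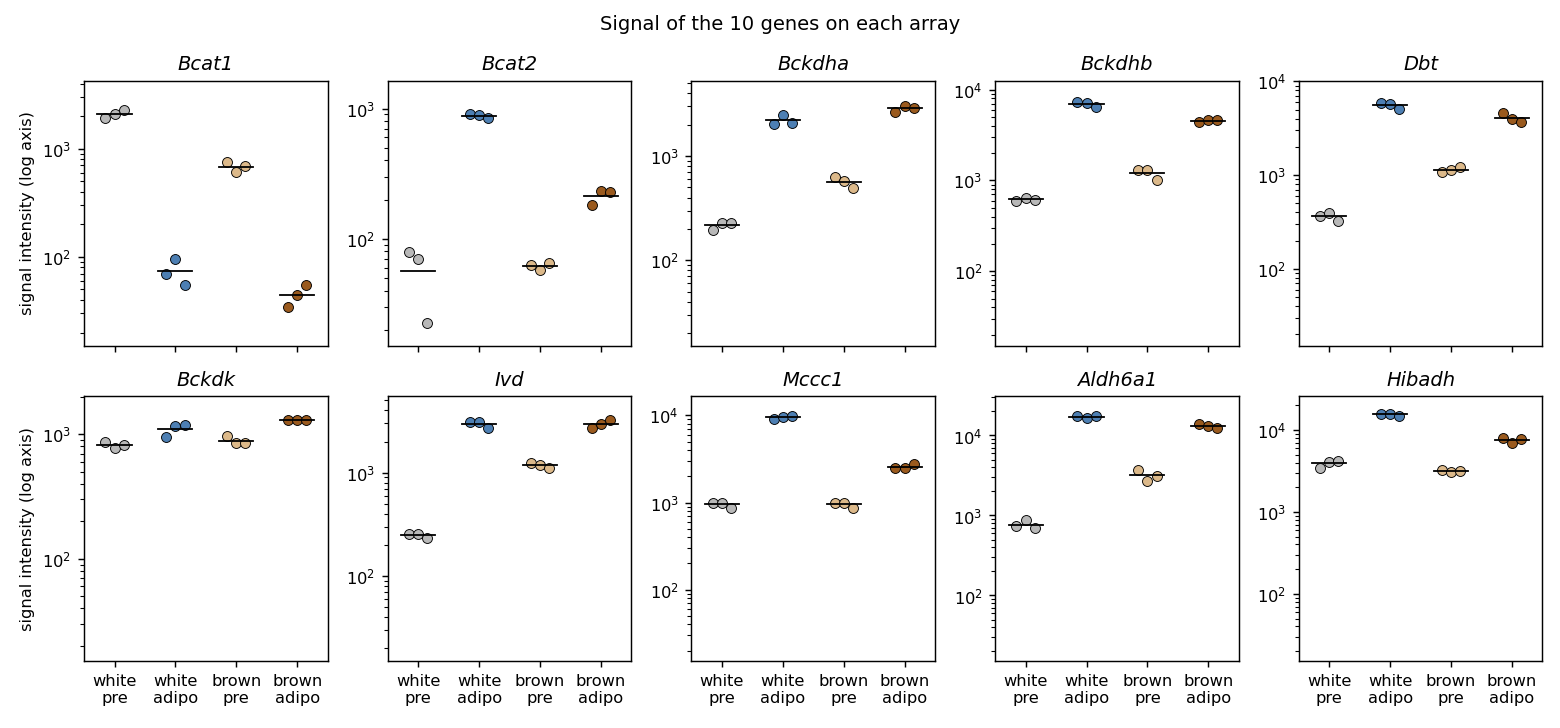
Signal of each of the 10 genes on each of the 12 arrays (points, log axis, 3 arrays per group) with the group mean as a line. Bcat1 is the only gene of the 10 whose points fall from preadipocytes (pre) to adipocytes (adipo), from 1917 to 2281 down to 55.0 to 95.9 in white cells.

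Because probe sets of different genes have no common scale, Bcat1 was set against Bcat2 only through the change of their log2 ratio within each array. In white preadipocytes the ratio was 4.35, 4.63 and 5.89, a mean of 4.96 ± 0.821 (SD, n = 3), and in white adipocytes -3.42, -3.02 and -3.59, a mean of -3.34 ± 0.293. Brown preadipocytes had 3.30, 3.07 and 3.11 (3.16 ± 0.123), and brown adipocytes -1.99, -2.04 and -1.79 (-1.94 ± 0.133). All 6 preadipocyte arrays lay above all 6 adipocyte arrays. Averaged over the lines, the ratio changed by -6.70 with differentiation (two-sided exact permutation test within lines, p = 0.005, the smallest that 400 assignments allow). This change was -5.45 with the mean of probe sets and -3.87 with less specific probe sets left out. The change was -8.30 in white and -5.10 in brown cells (exact permutation p = 0.1 each, the smallest possible with 3 arrays against 3); whether these changes differ between the lines was not tested on the ratio itself. Averaged over the stages, brown and white arrays differed by -0.20 (exact permutation p = 0.79), a value whose sign depended on the probe sets and arrays used. This average hides opposite differences at the stages, so it does not show that the lines were alike. Brown arrays lay below white ones in preadipocytes (means 3.16 and 4.96) and above them in adipocytes (-1.94 and -3.34), without overlap at either stage.

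**Figure D2:**
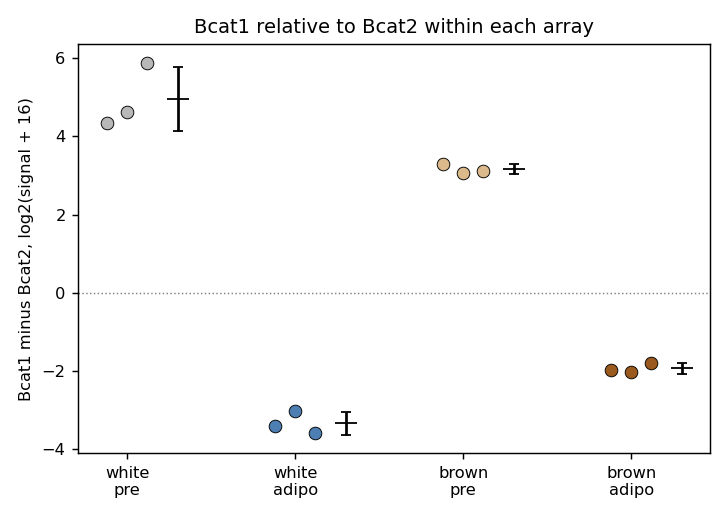
Difference between the log2(signal + 16) of Bcat1 and of Bcat2 within each array (points) with the group mean and SD (bars, n = 3) for the 4 groups. The ratio lies above 3 in both preadipocyte groups and below -1 in both adipocyte groups; its zero has no meaning because the probe sets have no common scale.

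The Bcat1 probe sets gave falls of different size. Of 3 probe sets, the brightest stands for the gene above; another fell by 3.77 (SE 0.127) in white and by 2.52 (SE 0.127) in brown cells. The dimmest in preadipocytes, with mean signals of 92.5 ± 18.7 and 94.1 ± 15.3 in white and brown preadipocytes, fell by 1.04 (SE 0.148, adjusted p = 0.000142 in limma over all probe sets) and by 1.43 (SE 0.148, adjusted p = 1.64e-05). The fall was thus called with each of the 3 Bcat1 probe sets in both lines, while its size ranged from 1.04 to 4.58 on the log2 scale in white cells. The middle probe set had adipocyte means of 9.60 ± 1.97 in white and 4.31 ± 0.876 in brown cells, below the 40th percentile of the arrays, and the dimmest had 36.3 ± 5.15 and 24.6 ± 2.96, near or below it. Adipocyte signals this low bound the falls that can be measured, so the sizes of the 3 falls are not directly comparable. The dimmest probe set is the only one of Bcat1 whose identifier does not mark it as shared between transcripts. Bcat2 had 1 probe set, which carries that mark. Over the 16 probe sets of the 10 genes, 13 were called higher and 3, those of Bcat1, lower in each line. The shares called over all probe sets were not counted. Over all genes tested they were 30.1% higher and 31.2% lower in white cells, and 27.2% and 31.6% in brown cells.

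The branched-chain keto acid dehydrogenase complex is built from decarboxylase subunits encoded by Bckdha and Bckdhb and a transacylase encoded by Dbt. Bckdha had 194, 229 and 228 in white preadipocytes against 2053, 2484 and 2074 in white adipocytes, and 632, 573 and 488 in brown preadipocytes against 2661, 3049 and 2917 in brown adipocytes. Its log2 rise was 3.25 (SE 0.116, adjusted p = 3.9e-09) in white and 2.32 (SE 0.116, adjusted p = 6.46e-08) in brown cells. Adipocyte and preadipocyte arrays did not overlap in either line, and the brown rise of Bckdha was the largest of the 10 genes in that line.

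Bckdhb rose from 589, 648 and 614 to 7289.6, 7092 and 6349.6 in white cells, and from 1308, 1293 and 999 to 4364, 4586 and 4625 in brown cells. The log2 rises were 3.45 (SE 0.105) and 1.91 (SE 0.105, adjusted p = 1.24e-07). Dbt rose from 367, 398 and 322 to 5815, 5751 and 5062 in white cells and from 1089, 1122 and 1209 to 4610.0, 3938 and 3699 in brown cells. These are log2 rises of 3.88 (SE 0.106) and 1.82 (SE 0.106, adjusted p = 1.87e-07). For the 3 subunits alike, brown preadipocytes started above white preadipocytes on every array.

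Bckdk encodes the kinase that phosphorylates the complex and switches it off. Its signals were 865, 783 and 817 in white preadipocytes and 950.0, 1173 and 1198 in white adipocytes. Brown preadipocytes had 964, 853 and 851 and brown adipocytes 1296, 1293 and 1310.1. Groups did not overlap within a line, but the rises were the smallest of the 9: 0.42 (SE 0.0934, adjusted p = 0.00278) in white and 0.54 (SE 0.0934, adjusted p = 0.000568) in brown cells. Scaled to the hybridization controls, the white value was 0.14 with an adjusted p of 0.303 in limma, so this call rests on the scaling. Under the same scaling the brown value was 0.33 (adjusted p = 0.0259).

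Among the genes outside the 10, Ppm1k encodes the phosphatase that opposes this kinase, and Dld the dihydrolipoamide dehydrogenase that the complex shares with other dehydrogenases. Both were picked for mention after their values were seen. Ppm1k rose by 1.92 (SE 0.0978) in white and 1.31 (SE 0.0978) in brown cells. Dld rose by 1.74 (SE 0.063) and 1.43 (SE 0.063), and by 0.82 and 0.71 with the mean of its probe sets.

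Leucine is broken down further by isovaleryl-CoA dehydrogenase, encoded by Ivd, and by methylcrotonyl-CoA carboxylase, whose biotin-carrying subunit is encoded by Mccc1. Ivd had 257, 253 and 231 in white preadipocytes and 3100.2, 3087 and 2729 in white adipocytes, against 1247, 1194 and 1119 in brown preadipocytes and 2706, 2952 and 3195 in brown adipocytes. Its adipocyte signals overlapped between the lines while its preadipocyte signals did not. The log2 rise was 3.50 (SE 0.0846, adjusted p = 2.81e-10) in white and 1.30 (SE 0.0846, adjusted p = 4.37e-07) in brown cells. A second Ivd probe set rose by 2.48 (SE 0.0844) and 1.01 (SE 0.0844).

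Mccc1 overlapped between the lines before differentiation, with 979, 998 and 874 in white and 997, 993 and 868 in brown preadipocytes. It reached 9185, 9605 and 9771 in white adipocytes and 2514, 2524 and 2733 in brown adipocytes. White adipocyte arrays all lay above brown ones. The log2 rise was 3.30 (SE 0.0785, adjusted p = 2.54e-10) in white and 1.43 (SE 0.0785, adjusted p = 1.27e-07) in brown cells.

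Valine passes through 3-hydroxyisobutyrate dehydrogenase, encoded by Hibadh, and methylmalonate semialdehyde dehydrogenase, encoded by Aldh6a1. Aldh6a1 had 732, 872 and 698 in white preadipocytes and 17489, 16353 and 17466 in white adipocytes, a log2 rise of 4.46 (SE 0.117, adjusted p = 4.83e-10) and the largest of the 10 genes in white cells. Brown cells went from 3682, 2705 and 3118 to 13719.6, 13102 and 12353, a rise of 2.05 (SE 0.117, adjusted p = 1.67e-07). Brown preadipocytes thus lay between white preadipocytes and the adipocytes of both lines.

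Hibadh was already bright in preadipocytes, with 3449.7, 4088 and 4158 in white and 3248, 3085 and 3164 in brown cells. White adipocytes had 15745, 15561 and 14969 and brown adipocytes 8004, 6906 and 7846. The rise was 1.98 (SE 0.0855, adjusted p = 1.47e-08) in white and 1.25 (SE 0.0855, adjusted p = 6.18e-07) in brown cells. A second Hibadh probe set gave 2.42 (SE 0.0665) and 1.54 (SE 0.0665).

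**Figure D3:**
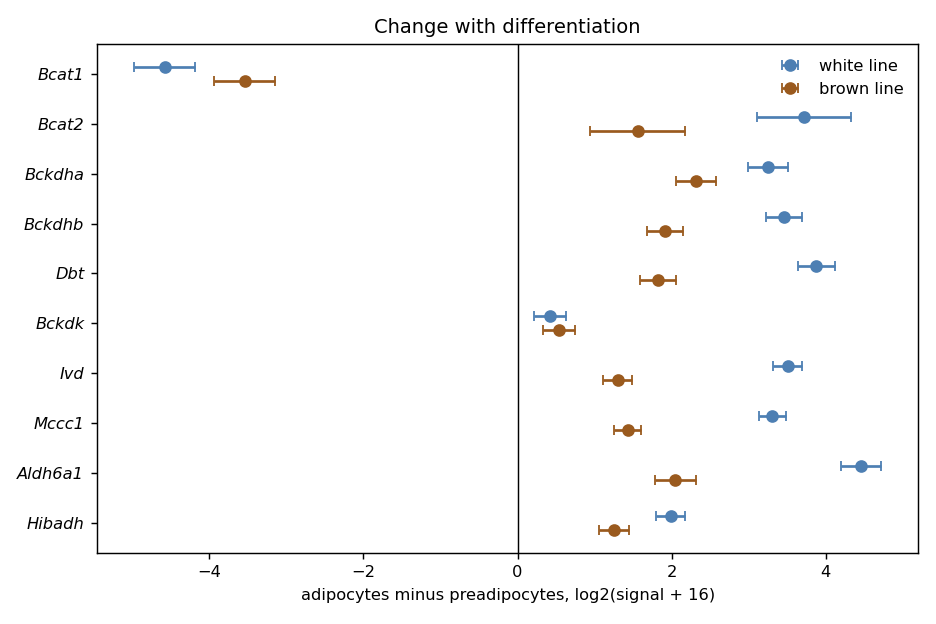
Log2 change of signal plus 16 from preadipocytes to adipocytes for the 10 genes, with its 95% confidence interval from limma, in the white (blue) and the brown line (brown), all with an adjusted p under 0.05. Bcat1 lies left of 0 in both lines, Bckdk closest to 0, and the other 8 genes further right in white than in brown cells.

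With the brightest probe set of each gene, the change with differentiation was smaller in the brown line for every gene of the 10 except Bckdk. The difference between the lines, brown change minus white change, was called for 9 of the 10 genes: higher for Bcat1, which fell less in brown cells, and lower for the 8 genes that rose less. Among all genes tested 23.6% were called higher and 27.5% lower. The median difference was -1.71, beside -0.05 for all genes. Both lines' changes are in this comparison, so it shares its arrays with the comparisons above.

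Aldh6a1, Ivd, Bcat2 and Dbt had the largest differences, of -2.41 (SE 0.166), -2.20 (SE 0.12), -2.16 (SE 0.389, adjusted p = 0.000991) and -2.06 (SE 0.15). Mccc1 differed by -1.88 (SE 0.111) and Bckdhb by -1.54 (SE 0.148). Bckdha and Hibadh differed least of the 8, by -0.93 (SE 0.164, adjusted p = 0.000897) and -0.73 (SE 0.121, adjusted p = 0.000581). For Bckdk the difference was 0.13 (95% confidence interval -0.17 to 0.42, adjusted p = 0.468). For Bcat1 it was 1.04 (SE 0.248, adjusted p = 0.00542), but -0.39 (SE 0.209, adjusted p = 0.163) with its dimmest probe set, and 0.63 with the mean of its probe sets, so neither the direction nor the call holds for every Bcat1 probe set.

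Before induction 7 of the 10 genes were called between the lines. In brown preadipocytes 5 genes were higher than in white ones, against 31.3% of all genes. These were Ivd by 2.19 (SE 0.0846), Aldh6a1 by 2.02 (SE 0.117), Dbt by 1.61 (SE 0.106), Bckdha by 1.31 (SE 0.116) and Bckdhb by 0.93 (SE 0.105). Bcat1 was lower by -1.60 (SE 0.175, adjusted p = 2.77e-05) and Hibadh by -0.29 (SE 0.0855, adjusted p = 0.014), against 23.8% of all genes called lower. The Bcat1 difference was 0.03 (adjusted p = 0.9) with the dimmest probe set. Hibadh was not called without white preadipocyte replicate 2 (-0.26, adjusted p = 0.0512) or 3 (-0.25, adjusted p = 0.0543), or with scaling to the hybridization controls (-0.21, adjusted p = 0.0869).

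Bcat2, Bckdk and Mccc1 were not called between the preadipocytes. For Bcat2 the difference was 0.20 (95% confidence interval -0.41 to 0.81, adjusted p = 0.58), and it was -0.21 without the dim white replicate 3. Bckdk differed by 0.11 (interval -0.10 to 0.32, adjusted p = 0.354). Mccc1 differed by 0.00 (interval -0.17 to 0.18, adjusted p = 0.98), but by 0.51 (SE 0.147, adjusted p = 0.0156) with its second probe set and by -0.27 (adjusted p = 0.0139) with arrays set to equal medians. The arrays of the lines did not overlap for 7 of the 10 genes, against 62% of all genes.

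The undifferentiated groups were unlike in their adipocyte markers. The summed signal of 7 adipocyte markers was 8564 to 9377 in white and 49081 to 57640 in brown preadipocytes, where all 7 were above the 40th percentile on every array against 4 in white preadipocytes. The marker Adipoq (adiponectin) ranged from 16205 to 20791 in brown preadipocytes and from 13.1 to 42.5 in white ones. The part of these marker levels in the differences between preadipocytes, and in the smaller brown changes, was not tested.

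In adipocytes the lines lay closer together for Bcat1, Bckdha, Bckdhb, Dbt, Ivd and Aldh6a1, with the brightest probe sets. They lay further apart for Bcat2, Mccc1 and Hibadh. For Bckdk the differences of 0.11 in preadipocytes and 0.24 in adipocytes were not called, nor was the difference between the lines' changes. With the dimmest Bcat1 probe set the difference was 0.03 in preadipocytes and -0.36 in adipocytes. With the second Ivd probe set it was 0.73 and -0.73. Brown adipocytes were lower than white ones for 7 genes and higher for 1, against 29.5% and 30.1% of all genes, with a median of -0.50 beside 0.00. Bcat2 was lower by -1.96 (SE 0.275, adjusted p = 0.000123), Mccc1 by -1.87 (SE 0.0785, adjusted p = 1.73e-08) and Hibadh by -1.03 (SE 0.0855, adjusted p = 2.65e-06). These 3 were the genes of the 10 that were lower by at least 2-fold, against 11.2% of all genes. Bckdhb was lower by -0.61 (SE 0.105), and Dbt by -0.44 (SE 0.106, adjusted p = 0.00427), or -0.29 (adjusted p = 0.0383) with scaling to the hybridization controls.

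The remaining differences between adipocytes were small and lost or gained their call with modest changes of the analysis. Bcat1 differed by -0.56 (SE 0.175, adjusted p = 0.0191); without white adipocyte replicate 2 it was -0.38 (adjusted p = 0.0691), and without brown adipocyte replicate 1 it was -0.43 (adjusted p = 0.0748). Aldh6a1 differed by -0.39 (SE 0.117, adjusted p = 0.0151), and by -0.35 (adjusted p = 0.052) without brown adipocyte replicate 3. The Aldh6a1 value was -0.24 (adjusted p = 0.142) with scaling to the hybridization controls and -0.27 (adjusted p = 0.0686) with quantile normalization. Bckdha was higher by 0.38 (SE 0.116, adjusted p = 0.0154), and by 0.34 (adjusted p = 0.0552) without white adipocyte replicate 1. Leaving out white adipocyte replicate 3 gave 0.34 for Bckdha (adjusted p = 0.0521), and leaving out brown adipocyte replicate 2 gave 0.34 (adjusted p = 0.0535). With equal medians it was 0.25 (adjusted p = 0.0977).

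Bckdk arrays did not overlap between the adipocytes, but its difference of 0.24 (95% confidence interval 0.03 to 0.44) had an adjusted p of 0.0512 in limma, and of 0.0278 with an intensity trend in the moderation. Ivd differed by -0.01 (interval -0.20 to 0.18, adjusted p = 0.921). With its second probe set Ivd was lower in brown adipocytes by -0.73 (SE 0.0844, adjusted p = 3.49e-05), so its probe sets disagree. Arrays of the lines did not overlap for 9 of the 10 genes, against 65.6% of all genes.

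**Figure D4:**
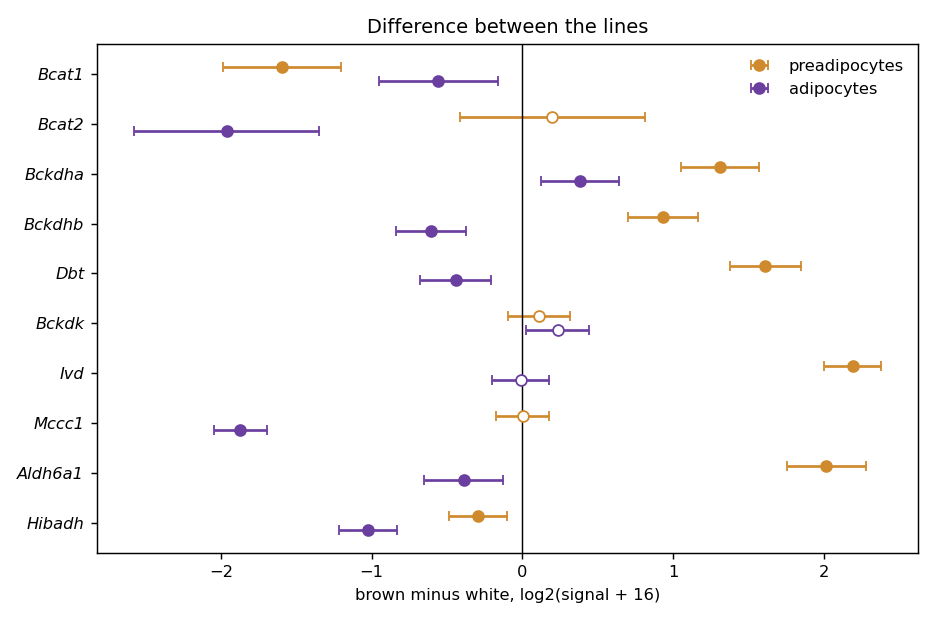
Brown minus white difference in log2(signal + 16) for the 10 genes, with its 95% confidence interval from limma, in preadipocytes (orange) and adipocytes (purple). Filled points have an adjusted p under 0.05; Ivd and Aldh6a1 lie near 2 in preadipocytes, and Bcat2 and Mccc1 near -2 in adipocytes.

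The order of the 4 groups differed among the genes. Bckdha and Bckdk had their highest mean in brown adipocytes (2876 ± 198 and 1299 ± 9.35), and Bcat2, Bckdhb, Dbt, Mccc1, Aldh6a1 and Hibadh in white adipocytes. Ivd did not separate the adipocyte groups, at 2972 ± 211 in white and 2951 ± 244 in brown cells (SD, n = 3). Bcat1 was highest in white preadipocytes (2097 ± 182), followed by brown preadipocytes (684 ± 77.0), and lowest in the adipocytes of both lines. The lowest mean belonged to white preadipocytes for Bckdha, Bckdhb, Dbt, Ivd and Aldh6a1, and to brown preadipocytes for Hibadh; for Bcat2, Bckdk and Mccc1 the preadipocyte groups overlapped.

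Other genes of the same pathway were taken from lists of enzymes, carriers, nitrogen partners and regulators. Of 17 measured other enzymes, 17 were higher in white adipocytes, with a median log2 change of 1.91. In brown cells 16 were higher and Mmab, which encodes a cobalamin adenosyltransferase, was lower at -0.34 (SE 0.111, adjusted p = 0.022), with a median of 1.36. The Mmab call was lost with quantile normalization (-0.26, adjusted p = 0.0587), when the other 2 groups were left out of the fit (adjusted p = 0.0567), and without brown preadipocyte replicate 3 (-0.22, adjusted p = 0.0652) or brown adipocyte replicate 1 (-0.32, adjusted p = 0.0652). Between the lines the change was lower in brown cells for 11 of the 17, Mmab among them, higher for 1 and not called for 5; with equal medians these counts were 7, 2 and 8.

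Hibch, which acts in valine breakdown before Hibadh, rose by 3.29 (SE 0.0761) in white and 2.05 (SE 0.0761) in brown cells. Acadsb, the short branched-chain acyl-CoA dehydrogenase of isoleucine breakdown, rose by 2.78 (SE 0.0706) and 0.89 (SE 0.0706). Mmut, the mutase that forms succinyl-CoA from the products of valine and isoleucine, rose by 2.34 (SE 0.0824) and 2.23 (SE 0.0824), the largest brown rise of its list. Mmaa, which assists the mutase, rose by 1.40 (SE 0.104) and 2.00 (SE 0.104). The change was smaller in brown cells for Hibch and Acadsb and larger for Mmaa, and the difference for Mmut was not called.

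Of 15 genes of the respiratory chain and of mitochondrial upkeep used as a reference, 14 were higher in white and 15 in brown adipocytes, with medians of 1.01 and 0.94. The exception in white cells was Tfam, a mitochondrial transcription factor, at -0.46 (SE 0.0724, adjusted p = 0.000264). With scaling to the hybridization controls 11 and 12 of the 15 were higher. The difference between the lines was called lower for 4, higher for 3 and not called for 8 of these 15. The median of the 10 genes thus lay 3.38 against 1.01 for the reference in white cells and 1.49 against 0.94 in brown cells, set side by side as a description.

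**Figure D5:**
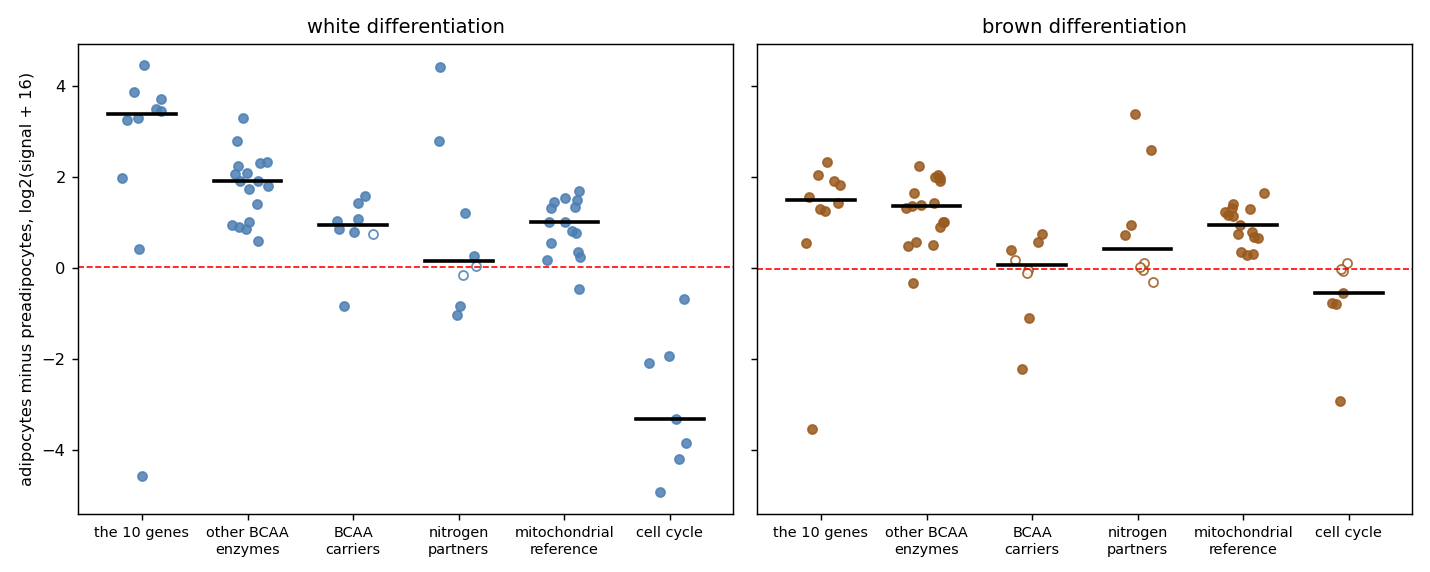
Log2 change of signal plus 16 from preadipocytes to adipocytes for each gene of 6 lists in the white and the brown line, filled where the adjusted p was under 0.05, with the list's median as a black bar and the median of all genes tested as a dashed red line. The 10 genes have medians of 3.38 and 1.49, and the single point far below 0 in their column is Bcat1. BCAA stands for branched-chain amino acid.

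Carriers of these amino acids moved in both directions. Of 8 measured, 6 were higher and 1 lower in white adipocytes (median 0.95), and 3 were higher and 2 lower in brown adipocytes (median 0.06, or -0.15 with scaling to the hybridization controls). Of all genes tested, 30.1% were called higher and 31.2% lower in white cells, and 27.2% and 31.6% in brown cells. The brown counts lay near these shares and are not read as a trait of the carriers. Slc25a44, the mitochondrial carrier of branched-chain amino acids, rose by 1.07 (SE 0.0796) in white and 0.74 (SE 0.0796) in brown cells, and Slc43a1, a plasma membrane carrier, by 1.42 (SE 0.105) and 0.56 (SE 0.105). Slc43a2 rose by 1.58 (SE 0.261) in white cells and differed by -0.12 (SE 0.261, adjusted p = 0.718) in brown cells.

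Slc7a5, the light chain of the large neutral amino acid exchanger, fell by 0.84 (SE 0.144, adjusted p = 0.000491) in white cells and differed by -0.05 (SE 0.144, adjusted p = 0.774) in brown cells. Slc7a8, a related light chain, fell by 2.22 (SE 0.335, adjusted p = 0.000226) in brown cells and differed by 0.74 (SE 0.335, adjusted p = 0.0805) in white cells, where it was called when the brown groups were left out of the fit (adjusted p = 0.0192). Slc7a8 was dim, with a highest group mean of 98.6 ± 35.8, and the brown value was -3.90 with a pseudocount of 1 and -1.13 with 64. Slc7a7 rose by 0.80 (SE 0.157) in white cells and fell by 1.10 (SE 0.157, adjusted p = 0.000152) in brown cells. Slc7a7 was dim too, with a highest group mean of 57.6 ± 8.33 and 12.7 ± 3.79 in brown adipocytes, and its brown value was -1.79 with a pseudocount of 1 and -0.51 with 64.

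The aminotransferases form glutamate, and of the other enzymes listed here that use or form it 8 were measured. In white cells 4 were higher and 2 lower (median 0.15, or -0.13 with 3 higher and 4 lower after scaling to the hybridization controls), and in brown cells 4 were higher and none was lower (median 0.41). Glul, the glutamine synthetase, rose by 2.80 (SE 0.0974) in white and 3.37 (SE 0.0974) in brown cells. Gpt, an alanine aminotransferase, rose by 4.41 (SE 0.137) and 2.59 (SE 0.137), but by 1.03 (adjusted p = 0.0115) in white cells with its less specific probe sets left out. Gpt2, its mitochondrial counterpart, rose by 1.21 (SE 0.0885) and 0.93 (SE 0.0885). The aspartate aminotransferases Got1 and Got2 fell by 0.84 (SE 0.149) and 1.05 (SE 0.078) in white cells; in brown cells Got1 differed by -0.30 (SE 0.149, adjusted p = 0.107) and Got2 by -0.04 (SE 0.078, adjusted p = 0.699). Scaled to the hybridization controls, both were called lower in brown cells, Got1 at -0.51 (adjusted p = 0.0174) and Got2 at -0.25 (adjusted p = 0.018).

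Of 8 regulators, 7 were higher in adipocytes of either line, and 6 with scaling to the hybridization controls. Klf15, a Krüppel-like factor known to control amino acid breakdown genes, rose from 4.06 ± 3.11 to 2989 ± 145 in white cells and from 401 ± 81.0 to 2522 ± 44.2 in brown cells. Pparg, the master regulator of adipogenesis, rose by 3.69 (SE 0.0645) and 1.49 (SE 0.0645). Myc, a growth-promoting factor known to raise Bcat1 in other cells, fell by 0.79 (SE 0.0765, adjusted p = 6.65e-06) in white cells and differed by 0.05 (SE 0.0765, adjusted p = 0.576) in brown cells. Ppara and Mlxipl rose by 1.55 (SE 0.136) and 2.28 (SE 0.284) in white and by 3.81 (SE 0.136) and 3.69 (SE 0.284) in brown cells; with a pseudocount of 64 the white values were 0.64 and 1.33.

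The genes whose pattern over the 12 arrays was most like that of Bcat1 were Vamp5 (Pearson r = 0.996), Rgs4 (0.995), Ajuba (0.994), Anxa3 (0.993) and Ruvbl1 (0.992). Those most like Bcat2 were Cd274 (0.993), Orm2 (0.992), Them4 (0.989), Pemt (0.988) and Gstz1 (0.984). These r values are descriptions over arrays of 4 groups, and other genes with similarly spaced group means can share them.

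The labelled cell types were set against markers. The brown marker Ucp1 was 333 to 468 in brown adipocytes and at most 30.5 elsewhere, and the preadipocyte gene Dlk1 fell with differentiation in both lines. Of 9 brown adipocyte markers, 6 were higher and 1 lower in white adipocytes than in white preadipocytes, and 7 were higher with differentiation in brown cells. Between adipocytes 7 of the 9 were higher in brown cells and 2 were not called, among them Cox8b, at 5065 ± 649 in white and 3685 ± 594 in brown adipocytes. Of 5 preadipocyte markers, 3 were lower in white and 5 in brown adipocytes, and Pdgfra was 2595 ± 138 and 2969.7 ± 269 in white cells. None of 4 endothelial markers was above the 40th percentile on all arrays of any group. The summed signal of 6 macrophage markers was 387 to 725 over all groups. Of these 6, 2 were above the 40th percentile on all arrays of white preadipocytes, 4 in white adipocytes and 3 in each brown group. Of the 4 macrophage markers tested, 1 was higher and 1 lower with white differentiation, and 1 was lower in brown cells. The part of the macrophage markers in the changes was not tested. The summed signal of 7 skeletal muscle markers was 305 to 456 in white preadipocytes and 995 to 1024 in white adipocytes, and 316 to 384 and 461 to 569 in brown cells; the part of this in the changes was not tested. Of 7 cell cycle genes, 7 were lower in white adipocytes (median -3.32) and 4 in brown adipocytes (median -0.56); the part of this difference in the Bcat1 falls was not tested. The actin control's ratio of 3' to 5' signal rose from 1.40 ± 0.0554 to 2.25 ± 0.151 in white and from 1.49 ± 0.0626 to 2.42 ± 0.0478 in brown cells (exact permutation p = 0.1 each, the smallest possible), while the Gapdh ratio was 0.861 and 0.828 in white and 0.775 and 0.814 in brown cells (exact permutation p = 0.1 and p = 0.2). The pyruvate carboxylase control's ratio was 3.63 ± 0.693 and 7.64 ± 1.83 in white cells (exact permutation p = 0.1) and 5.70 ± 0.902 and 6.80 ± 0.763 in brown cells (exact permutation p = 0.2). The ratio is a sign of RNA integrity and labelling, and its part in the changes was not tested. Correlations of log2 signal between arrays were 0.978 to 0.982 within and 0.885 to 0.935 between groups.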

How the data were processed

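The deposited table held a signal intensity on a linear scale for each probe set. Per the submitters' processing notes, the authors used Affymetrix Expression Console; its version was not given in the sources used here, nor was the way it summarised probes. After trimming 2% at each end, the mean deposited intensity lay between 500.003 and 500.004 on every array, so arrays had been scaled alike, which hides changes in total RNA. Of 45101 probe sets, 34958 carried 1 symbol in the platform annotation, 932 several and 9211 were not listed. The probe set with the highest mean stood for each gene. Genes above the array's 40th percentile on at least 3 arrays were tested (13753; 4441 were left out). Intensities were transformed as log2(signal + 16) and fitted with limma 3.58.1 in R 4.3.3 (lmFit on 4 group means, eBayes, all 12 arrays), with two-sided p-values adjusted by Benjamini-Hochberg. Probe sets were also tested singly (25846), an alternative chosen after seeing the data. The within-array ratio of Bcat1 to Bcat2 and the control ratios were tested with exact permutations. Scripts were tested on simulated data; plots used Python 3.11.15 and matplotlib 3.10.9.

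The 10 genes, the lists and the alternatives were chosen with earlier results of these data known. Beside the 10, the text names genes from among the 3 called genes of each list with the largest change in a differentiation comparison, those called against most of their list, the 5 genes most like Bcat1 and the 5 most like Bcat2, and Pparg, Adipoq, Ucp1, Dlk1, Klf15 and Myc; Tfam is named as the exception of its list, and Cox8b and Pdgfra were chosen after their values were seen. Some entries of the lists are not analysed here. The 10 genes were retested with 1 or 64 as the pseudocount, and with arrays quantile-normalized, set to equal medians or scaled to hybridization controls. Further alternatives were no filter or one at the 60th percentile, the mean of probe sets, and trended or robust moderation. Less specific probe sets were left out where a gene had another. The last were a replicate block, a 2-fold rule, fits of only the arrays compared, and leaving out each array. For other named enzymes, carriers, nitrogen partners, regulators and Tfam, only changes with differentiation were recomputed gene by gene. The ratio of Bcat1 to Bcat2 was not recomputed with other filters, other moderation, the 2-fold rule or only the arrays compared. Control ratios were recomputed only with single arrays left out.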

Additional observations from a re-analysis of the deposited data

Results flagged for a closer look

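The change with differentiation differed between the lines, by the interaction term of the limma fit, for 9 of the 10 genes. Brown minus white, the difference was 1.04 for Bcat1, -2.16 for Bcat2, -0.93 for Bckdha, -1.54 for Bckdhb, -2.06 for Dbt, -2.20 for Ivd, -1.88 for Mccc1, -2.41 for Aldh6a1 and -0.73 for Hibadh. Among other enzymes it was -0.60 for Ppm1k, -0.30 for Dld, -1.24 for Hibch, -1.89 for Acadsb, 0.59 for Mmaa and -1.35 for Mmab.

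Among carriers the difference was 0.78 for Slc7a5, -1.89 for Slc7a7, -2.96 for Slc7a8, -0.86 for Slc43a1, -1.71 for Slc43a2 and -0.33 for Slc25a44. For the nitrogen partners it was 0.58 for Glul, 1.01 for Got2 and -1.82 for Gpt. With less specific probe sets left out, Gpt rose by 1.03 in white cells. Its brown rise was at least 2.10 in every alternative. The sign of the Gpt difference therefore does not hold for every choice of probe set, and the difference itself was not recomputed. For the regulators the difference was -4.61 for Klf15, 0.85 for Myc, 1.41 for Mlxipl, 2.26 for Ppara and -2.19 for Pparg. For the mitochondrial gene Tfam it was 1.12. Over the alternatives the white change ranged from 5.49 to 9.39 for Klf15, from 1.33 to 3.33 for Mlxipl and from 0.64 to 3.20 for Ppara. The brown ranges were 2.42 to 2.72, 3.42 to 3.80 and 3.20 to 4.09. The sizes of these 3 differences thus depend on the processing, and the differences themselves were not recomputed. Groups of 3 arrays were too small for a check of single arrays that stand apart.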

How the results depend on the processing

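Over 26 alternatives, the 10 genes kept direction and call in 258 of 260 checks in white and 259 of 260 in brown cells; the exceptions were Bckdk with a 2-fold rule and, in white cells, with scaling to the hybridization controls. For the difference between the lines (25 alternatives) 247 of 250 did, for brown against white preadipocytes 246 of 260 and for adipocytes 231 of 260. With the 2-fold rule 3 of the 10 genes, not 8, were called between adipocytes, 5 between preadipocytes, 7 between the lines' changes and 9 in each differentiation. All 3 between adipocytes were lower in brown cells, against 11.2% of all genes at that rule. The shares of all genes at the rule were not counted for the other comparisons. These counts therefore show only how the calls depend on the rule. The change of Bcat1 relative to Bcat2 ranged from -7.33 to -3.87; its exact permutation p was 0.005 wherever a p was given, the smallest possible, which does not measure stability. In white cells it was -8.95 with a pseudocount of 1, -6.97 with 64, -6.85 with the mean of probe sets, -4.76 with less specific probe sets left out, and -8.60 to -7.83 with single arrays left out. In brown cells the first 4 values were -5.70, -3.92, -4.05 and -2.99. The line difference of the ratio reversed with the mean of probe sets (0.15), with less specific probe sets left out (0.71) and without white preadipocyte replicate 3 (0.038; single arrays left out gave -0.35 to 0.04). Reversed too were the preadipocyte difference of Mccc1 with equal medians (-0.27), and with less specific probe sets left out the Bcat1 values between preadipocytes (0.026) and between the lines' changes (-0.39). The cause was not tested, beyond the choice of probe set.

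With scaling to the hybridization controls the median change of all genes was -0.225 in white and -0.222 in brown cells, against 0.02 and -0.03, with 2952 genes higher and 5643 lower in white cells against 4142 and 4287, and 2641 and 5626 in brown cells against 3737 and 4342. With equal medians the adipocyte comparison had 3450.0 higher and 4690.0 lower, and the preadipocyte comparison 2735 and 4949. The signals showed no sign that replicate numbers pair the samples: deviations of same-numbered arrays from their group means correlated at -0.0292 to 0.0668. In 5 of 18 comparisons of an array with another group it correlated best with its own number. These values cannot show whether same-numbered samples were grown or processed together. With the replicate block, 10, 10, 9, 8 and 7 of the 10 genes were called in the 5 comparisons, as without it, and the ratio of Bcat1 to Bcat2 changed by -6.70, with no p. The signal over background limits Bcat2 in preadipocytes and Bcat1 in adipocytes, both near the 40th percentile.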
